A study of Mus musculus with 4 samples.

Results

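The 5 genes Slc5a1, Slc2a2, Slc2a5, Slc2a1 and Khk, which carry glucose and fructose across the enterocyte or, for Khk, start fructose breakdown within it, were examined for open chromatin in mouse intestinal organoids with and without BMP2. The genes were picked by name, out of 18256 protein-coding genes that had at least 1 peak within 50 kb. Each peak whose midpoint lay in the gene body or within 50 kb of it was taken, which gave 49 of the 41343 peaks of the 72 h library and 38 of the 35857 peaks of the 0 h library. The assay was ATAC-seq, in which the Tn5 transposase cuts accessible DNA and the fragments are sequenced, on 30000 dissociated cells per library.

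The organoids, of C57BL/6J genotype, came from crypts of the proximal part of the small intestine, labelled jejunum. The 72 h organoids had Noggin (which blocks BMPs), CHIR99021 (which turns on Wnt signalling by blocking GSK3) and valproic acid (which blocks histone deacetylases) taken away for 72 h and received 100 ng/mL BMP2. The 0 h organoids stayed in medium with CHIR99021, valproic acid and Noggin and received no BMP2. Both media, named ER and CVENR, held epidermal growth factor and R-spondin. BMP2 and the loss of the other 3 agents therefore cannot be told apart. The series has 4 libraries, 1 per time point, and those of 24 h and 48 h were not analysed here. With 1 library per time point no test between conditions was possible, no value has a replicate error, and the 95% intervals below (exact Clopper-Pearson) cover counting error only. The lists give peak positions without heights, p-values or read counts, so read depth is unknown and a peak is known only to have passed 1e-05 (lenient) or also 1e-10 (strict).

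Dietary sugars cross the small intestine in sequence, through the brush border and then the basolateral membrane. Slc5a1 encodes SGLT1, the sodium-coupled cotransporter that brings glucose and galactose in from the lumen, and Slc2a5 encodes GLUT5, the apical fructose carrier. Slc2a2 encodes GLUT2, through which these sugars leave on the basolateral side, and Slc2a1 encodes GLUT1, a glucose carrier of many cell types. Khk encodes ketohexokinase, which phosphorylates fructose as the opening step of its breakdown. Mature villus enterocytes carry out this absorption, and BMP signalling is stronger on the villus than in the crypt.

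More peaks at the 5 genes were found in the 72 h library alone than in the 0 h library alone. A peak was called shared when a peak of the other library overlapped it by at least 1 bp. Of the 49 peaks at 72 h, 17 (34.7%, 21.7 to 49.6) had no overlapping 0 h peak, and of the 38 peaks at 0 h, 4 (10.5%, 2.94 to 24.8) had no overlapping 72 h peak. Over the whole lists the same shares were 30.6% at 72 h and 20.7% at 0 h, and both background values lie inside the members' intervals. Among strict peaks, 9 of 35 at 72 h (25.7%, 12.5 to 43.3) had no 0 h peak, against 18.1% of all strict 72 h peaks. Peaks of the 72 h library alone were present at all 5 genes (64.4% of all genes with a peak in such a window), and peaks of the 0 h library alone at 2, Slc5a1 and Slc2a5 (52.2% of genes). None of the 23 strict peaks at 0 h lacked a 72 h peak (0%, upper bound 14.8), against 6.40% of all strict 0 h peaks. The authors' deposited list of regions enriched at 72 h held those same 9 strict peaks and no other peak of these windows, and their list for 0 h held none. This follows from what those lists hold, since all 4534 regions of the 72 h list are among the 4535 strict 72 h-only peaks, and 1274 of the 1276 of the 0 h list among the 1275 strict 0 h-only peaks. Because these are bulk cells, a site open in more cells and a site more open in each cell cannot be told apart.

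**Figure D1:**
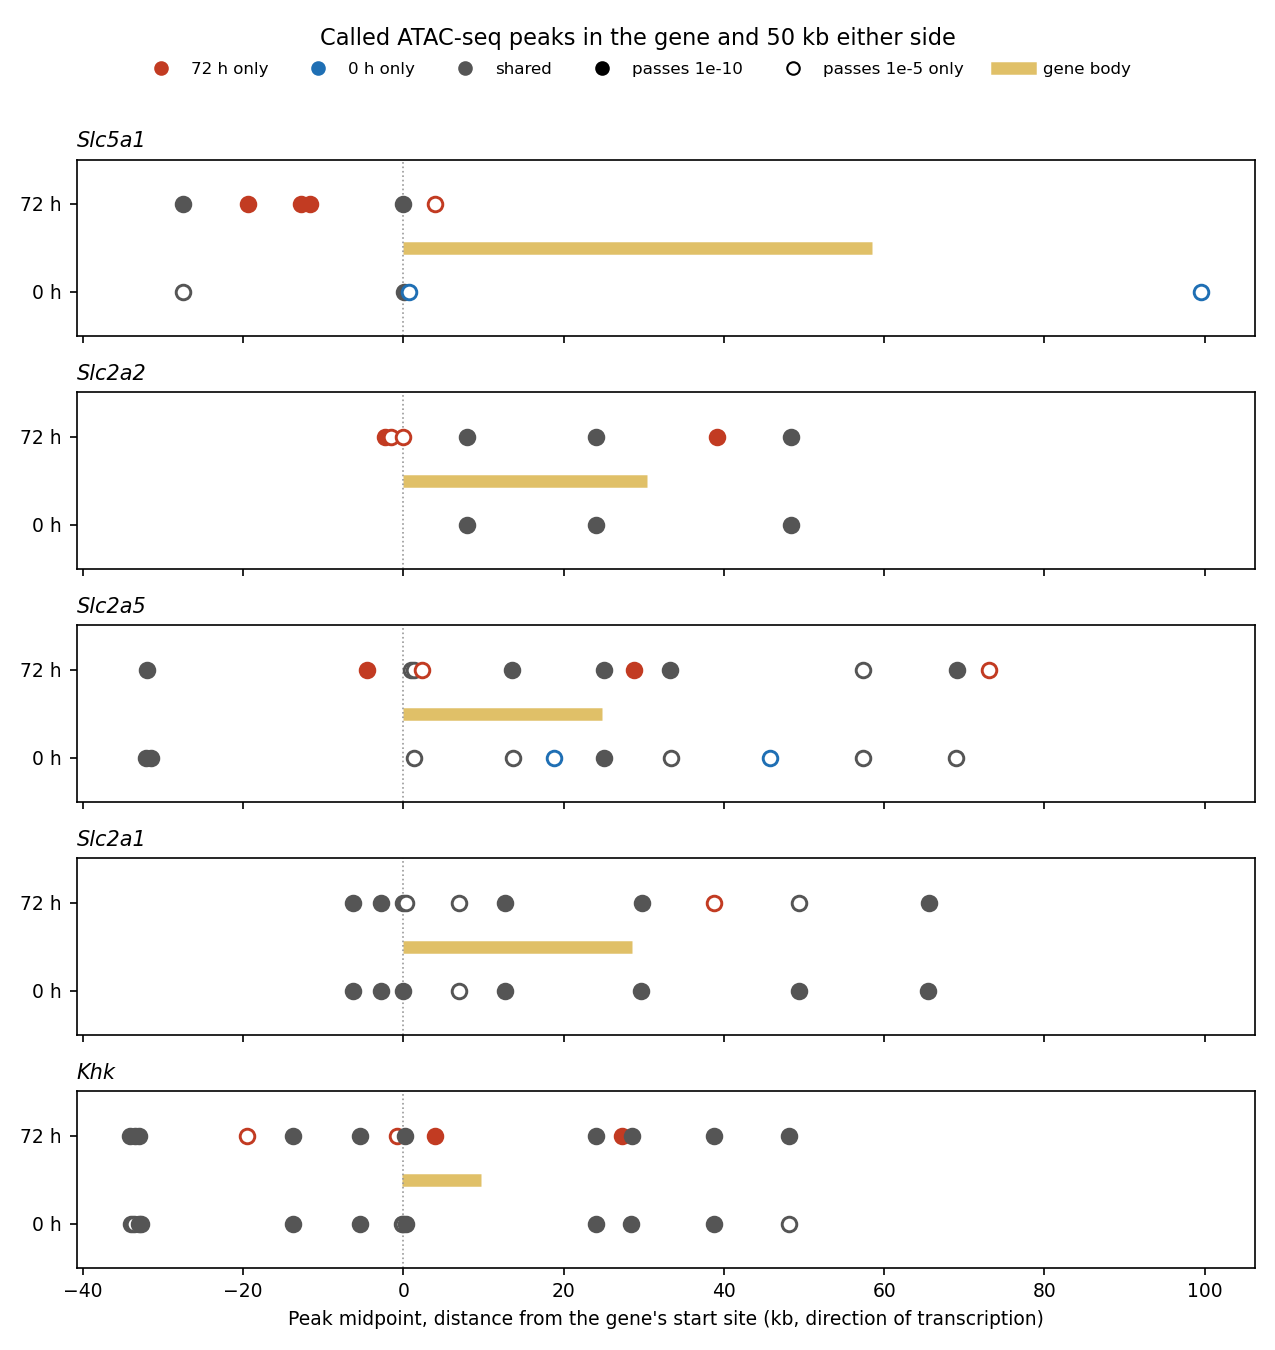
Midpoints of called peaks along each gene, as distance from its start site in kb; the 72 h library lies above the 0 h library. Filled circles passed 1e-10 and open ones 1e-05 only, colours give the overlap class and the bar is the gene body. The 3 strict 72 h-only peaks of Slc5a1 stand in a run before the gene, those of Slc2a2 lie 2.27 kb before its start and past its end, and Slc2a1 has no strict peak of 1 library only.

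The share of sites found at both times was lowest at Slc5a1 and highest at Slc2a1. With overlapping peaks of both libraries merged, the windows held 49 sites, of which 28 (57.1%) had peaks in both libraries, beside 55.6% of the 43066 sites of the whole genome. At Slc2a1 8 of 9 sites were in both, at Khk 8 of 12, at Slc2a5 7 of 13, at Slc2a2 3 of 7 and at Slc5a1 2 of 8. Strict 72 h-only peaks came to 3 of 5 strict 72 h peaks at Slc5a1, 2 of 5 at Slc2a2, 2 of 7 at Slc2a5, 2 of 12 at Khk and 0 of 6 at Slc2a1. That order runs from 60.0% (14.7 to 94.7) at Slc5a1 down to 0% (upper bound 45.9) at Slc2a1. These intervals overlap even between the ends of the order. Such overlap alone does not decide whether 2 members differ, and no test between members was run. In a second count, a strict 72 h peak needed a strict 0 h peak to count as shared. Those left without one were 4 of 5 at Slc5a1, 5 of 7 at Slc2a5, 2 of 5 at Slc2a2, 3 of 12 at Khk and 0 of 6 at Slc2a1. Slc2a5 then stood above Slc2a2. Of all 25040 strict 72 h peaks, 4535 had no 0 h peak, and 4035 more had a lenient one as their widest overlap. All peaks left by the second count are among those. Among all genes with a peak in such a window, 33.3% had at least 1 strict 72 h-only peak, 10.8% at least 2 and 3.31% at least 3. At least 4 peaks found at 72 h alone, strict or lenient, were present at 9.59% of genes and at each member except Slc2a1. Windows of long genes are wider and can hold more peaks, which these shares do not take into account. Nor do they allow for the number of peaks in a window, whose median over all genes was 5 at 72 h. Peaks at 72 h alone were 4 of 14 at Khk (28.6%), 4 of 12 at Slc2a5 (33.3%), 4 of 7 at Slc2a2 (57.1%) and 4 of 6 at Slc5a1 (66.7%). Over the whole list the share was 30.6%.

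**Figure D2:**
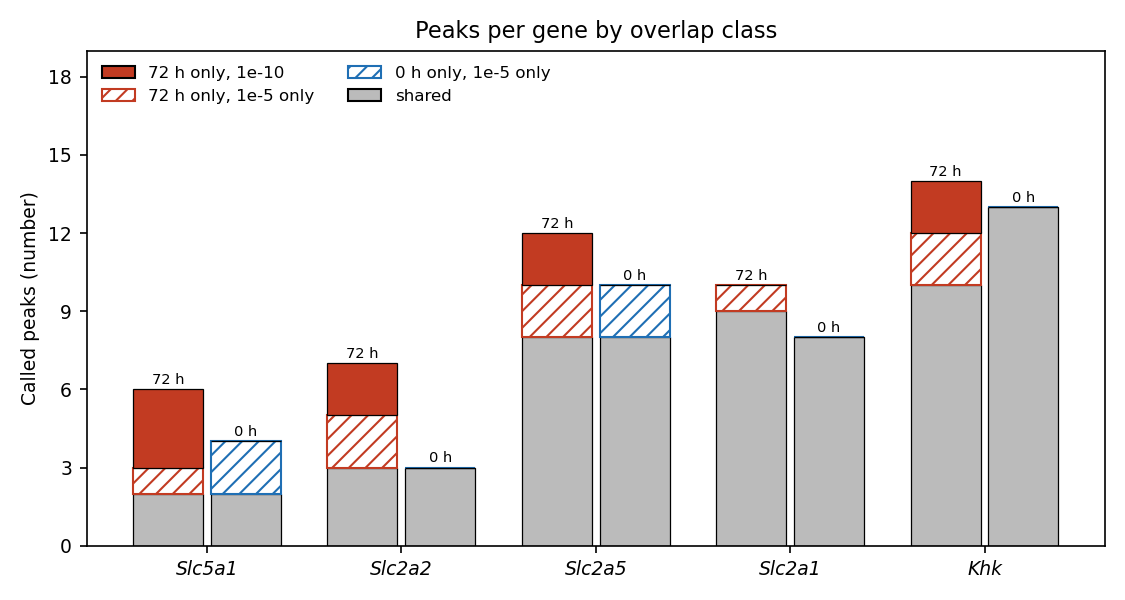
Number of called peaks in each gene's window, with the 72 h library left of the 0 h library. Solid colour marks strict peaks of 1 library only, hatching lenient ones and grey shared peaks; the 72 h bars hold 6, 7, 12, 10 and 14 peaks and the 0 h bars 4, 3, 10, 8 and 13.

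**Figure D3:**
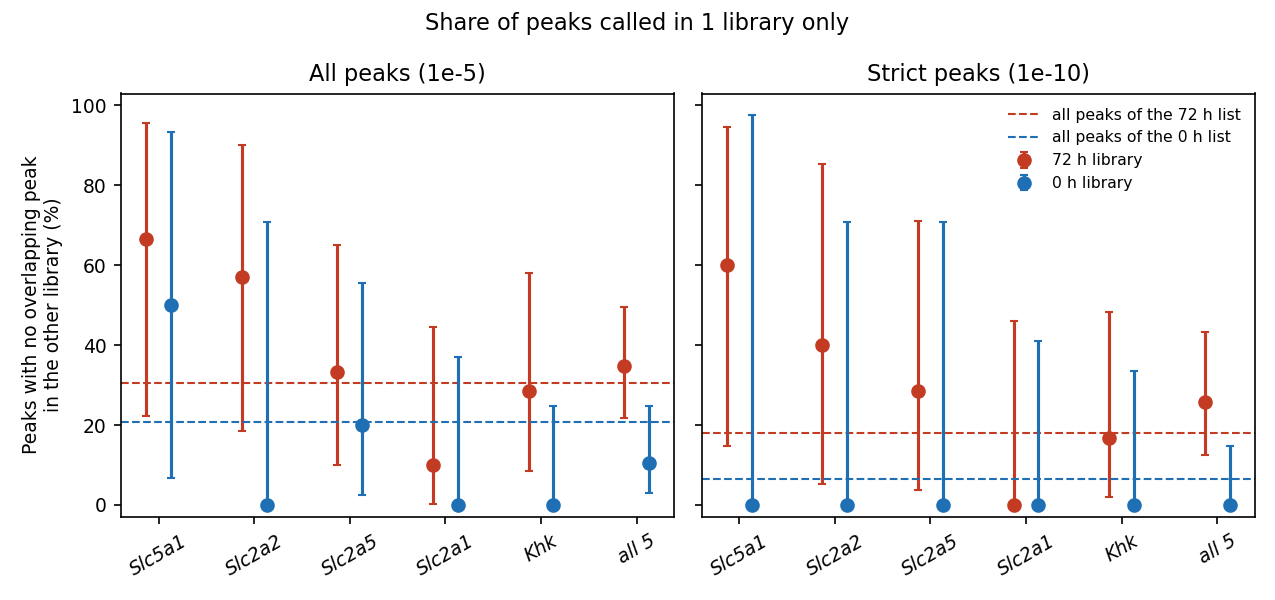
Percent of each gene's peaks that had no overlapping peak in the other library, for all peaks and for strict peaks; points are shares, bars exact 95% intervals and dashed lines the shares over each whole list. In the 72 h library the points of Slc5a1, Slc2a2 and Slc2a5 lie above the dashed line for that library and those of Slc2a1 and Khk below it, and the intervals of all 5 cross it.

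The start of Slc2a2 was in a peak at 72 h alone, which was so at no other member. Windows of 300 bases, reaching 250 bases before and 50 after each annotated start, were compared with the peaks of both libraries. The Slc2a2 window lay whole in a lenient 72 h peak and touched no 0 h peak, a state shared by 1.99% of 21263 such windows of protein-coding genes. The Slc5a1 and Slc2a1 windows overlapped strict peaks at both times, as did that of Khk; 47.4% of all windows had a peak at both times. At Slc5a1 the 72 h peak covered all 300 bases and the 0 h peak 233. At Khk the strict peaks covered about as many bases at both times, 82 at 72 h and 79 at 0 h, and a lenient 0 h peak covered all 300. The Slc2a5 window had no peak at either time, like 46.8% of all windows, and no member had a 0 h peak alone there (3.78% of windows). The nearest peaks to that start had their midpoints inside the gene, 1.01 kb from it at 72 h and 1.32 kb from it at 0 h, all lenient.

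The bases before 3 of these starts are shown because they represent a start called at 72 h alone (Slc2a2) and starts called strictly at both times (Slc5a1, Slc2a1). Each line gives the 250 bases before the start on the plus strand, from RefSeq on GRCm38.p6, the assembly of mm10. Capitals mark GTCTG or its reverse complement CAGAC, a short SMAD motif, and CACGTG, the E-box.
Slc2a2, chr3:28697653-28697902: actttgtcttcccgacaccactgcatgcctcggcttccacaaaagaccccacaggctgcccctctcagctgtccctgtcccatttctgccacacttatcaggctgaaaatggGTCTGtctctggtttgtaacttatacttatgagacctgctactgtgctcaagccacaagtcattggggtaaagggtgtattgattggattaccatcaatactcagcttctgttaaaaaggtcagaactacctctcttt
Slc5a1, chr5:33103969-33104218: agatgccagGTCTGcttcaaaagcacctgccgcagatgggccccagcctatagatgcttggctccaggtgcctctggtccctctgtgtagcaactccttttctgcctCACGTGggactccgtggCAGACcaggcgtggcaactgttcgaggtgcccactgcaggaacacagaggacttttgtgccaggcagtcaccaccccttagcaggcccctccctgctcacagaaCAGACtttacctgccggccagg
Slc2a1, chr4:119108495-119108744: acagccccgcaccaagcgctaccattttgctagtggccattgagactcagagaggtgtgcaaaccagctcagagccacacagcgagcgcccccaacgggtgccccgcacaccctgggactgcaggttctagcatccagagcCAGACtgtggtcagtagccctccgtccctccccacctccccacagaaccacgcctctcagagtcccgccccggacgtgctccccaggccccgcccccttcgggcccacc

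The Slc2a2 window also had the lowest share of G and C among the 5, at 48.0%, against 60.3% at Slc5a1, 65.3% at Slc2a5 and Slc2a1, and 65.7% at Khk; the median of all windows was 56.3%. The short SMAD motif occurred once at Slc2a2 and Slc2a1, 4 times at Slc5a1, 5 times at Slc2a5 and not at Khk, counting both strands of the 300 bases, and 48.4% of all windows hold it. The E-box occurred once at Slc5a1 and once at Khk (7.84% of all windows). Khk alone held GTTAAT, one arm of the HNF1 motif (6.25% of windows). Slc2a1 held TATAAA (12.6%) and TTTATNG, the CDX motif (9.58%), in overlapping letters just after its start. No window of the 5 held the SMAD palindrome GTCTAGAC (0.226%), CAAAGTCCA for HNF4 (0.451%) or AGATAA for GATA (9.65%). These matches only describe the letters of the windows.

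At Slc5a1, on chromosome 5 from 33104219 to 33162699, the 3 strict sites found at 72 h alone stood before the gene and a lenient one inside it. The 72 h library had 6 peaks and the 0 h library 4, and no other protein-coding gene reaches into this window. The 3 strict 72 h-only peaks lay at 33084579 to 33085179, at 33091149 to 33091749 and at 33092261 to 33092861, centred 19.3, 12.8 and 11.7 kb before the start. The nearest 0 h peaks were 7.55, 12.3 and 11.2 kb from their edges. A lenient 72 h-only peak lay 3.98 kb inside the gene. A further site, 27.5 kb before the start, was shared with an overlap of 584 bp, and it passed 1e-10 at 72 h but only 1e-05 at 0 h. The start itself was strict at both times, with midpoints 191 bp apart. Both 0 h-only peaks were lenient. One was centred 0.765 kb inside the gene, at 33104684 to 33105284, and began 0.238 kb from the edge of the 72 h peak at the start, and the other lay 41.1 kb past the end of the gene with Spon2 as its nearest gene.

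At Slc2a2, on chromosome 3 from 28697903 to 28728361, the body of the gene was called at both times while its start was called at 72 h alone. The 72 h library had 7 peaks and the 0 h library 3. The 3 shared sites were strict in both libraries, at 7.96 and 24.1 kb inside the gene and 48.4 kb from the start beyond its end, with midpoints 12 to 27 bp apart. The 72 h-only peaks at the start formed a row of 3 that began 2.27 kb before it. A strict peak was centred 2.27 kb before the start (28695336 to 28695936), a lenient one 1.57 kb before it (28696037 to 28696637), and a lenient one 17 bp inside the gene (28697620 to 28698220). The nearest 0 h peak was 7.37 kb or more from each. The other strict 72 h-only peak lay at 28736800 to 28737400, 39.2 kb from the start and past the end of the gene, with Slc2a2 still the nearest protein-coding gene. It and all 3 shared sites lie in the lncRNA gene 1700112D23Rik, which runs on the opposite strand and overlaps Slc2a2. There was no 0 h-only peak.

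At Slc2a5, on chromosome 4 from 150119344 to 150144168, 7 of 13 sites were in both libraries (53.8%, beside 55.6% of all sites). Several shared peaks passed the strict threshold at 72 h alone. The 72 h library had 12 peaks, 7 of them strict, and the 0 h library 10, 3 of them strict. Strict 72 h-only peaks lay at 150114512 to 150115112, 4.53 kb before the start, and at 150147888 to 150148488, 28.8 kb from the start. The peak farther away lies between Slc2a5 and Slc2a7, a related hexose transporter gene, and is nearer to Slc2a7, which begins at 150148834. For the peak before the start, the numbering of the 0 h peaks skips 1 number between 150088148 and 150120361. Whether a 0 h peak with that number lay there cannot be told from the rows used here. Without the 72 h peak before the start the window has 1 strict 72 h-only peak. Over the whole lists, 1427 numbers are skipped at 0 h (highest number 37284) and 740 at 72 h (highest 42083). Any missing 0 h rows could raise the counts of 72 h-only peaks, here and in the whole list, which was not tested. Among the 8 shared 72 h peaks, 2 were strict in both libraries, 3 at 72 h alone and 3 in neither. The 3 that were strict at 72 h alone were centred 13.5, 33.3 and 69.0 kb from the start, in Slc2a5, Slc2a7 and Car6. The 0 h-only peaks, both lenient, were 18.9 kb from the start inside the gene and 45.7 kb from it in Slc2a7. Lenient 72 h-only peaks were 2.28 kb inside Slc2a5 and 73.1 kb from its start in Car6.

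At Slc2a1, on chromosome 4 from 119108745 to 119137330, nearly all peaks were common to both libraries. The 72 h library had 10 peaks, 6 of them strict, and the 0 h library 8, 7 of them strict, the only member with more strict peaks at 0 h. Strict shared sites ran from 6.28 kb before the start through 2.78 kb before it and the start itself to 12.7 kb inside the gene, 29.7 kb from the start past its end, and 65.5 kb from it near Zfp691. The peaks before the start lie in Gm52706, a lncRNA gene on the opposite strand. A site centred 6.99 kb inside the gene at 0 h was lenient at both times, and 1 site 49.3 kb from the start was lenient at 72 h and strict at 0 h. A second lenient 72 h peak, 0.373 kb inside the gene, overlapped the strict 0 h peak of the start by 145 bp. The only peak of 1 library was lenient, at 119147152 to 119147752 in the 72 h library, 38.7 kb from the start.

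At Khk, on chromosome 5 from 30921436 to 30931248, 1 strict site inside the gene was found at 72 h alone in a window crowded with other genes. The 72 h library had 14 peaks, 12 of them strict, and the 0 h library 13, 9 of them strict. The strict 72 h-only peak of the gene lay at 30925183 to 30925783, 3.92 kb from the start, with the nearest 0 h peak 3.05 kb away. The other strict one, at 30948557 to 30949157, was 27.3 kb from the start and nearer to Preb, and ended 0.567 kb from a 0 h peak. At the start, the strict peaks of both libraries were centred 3 bp apart, and the 0 h library had 2 further lenient peaks across it, which overlap the same 72 h peak. A lenient 72 h-only peak, 0.787 kb before the start at 30920472 to 30921072, was only 30 bp from the nearest of those 0 h peaks. Its midpoint lies in the neighbouring gene Emilin1. The remaining lenient 72 h-only peak lay in Agbl5, 19.5 kb before the start. Parts of 7 other protein-coding genes lie in the window, and of its 10 shared 72 h peaks Khk was the nearest protein-coding gene to 1. Of these 10, 8 were strict in both libraries and 2 at 72 h alone, 33.5 kb before the start near Agbl5 and 48.1 kb from it in Tcf23, although the peak near Agbl5 also overlapped strict 0 h peaks by fewer bases.

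Over the 5 genes, 12 of the 17 peaks found at 72 h alone had the member itself as the nearest protein-coding gene, as did 17 of the 32 shared 72 h peaks. Of the 17, 8 lay before the start, 4 inside the gene and 5 past its end. Those within 1 kb of the start numbered 2, at Slc2a2 and Khk, and both were lenient. The midpoint of the Khk one lies in Emilin1. The median distance from the edge of such a peak to the nearest 0 h peak was 5.25 kb, with a range from 0.03 to 12.3 kb. At the far side of the window, the 72 h peaks just outside the 50 kb limit were 50.8 kb from Slc5a1, 51.6 kb from Khk, 52.9 kb from Slc2a2, 58.1 kb from Slc2a1 and 58.6 kb from Slc2a5, and only that of Slc2a5 had no 0 h counterpart. The farthest 72 h peaks inside the limit were from 17.9 kb (Slc2a2) to 48.3 kb (Slc2a5) from the gene body.

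Peaks in both libraries also differed in the threshold they passed. Judged by the 0 h peak of widest overlap, 20 of the 32 shared 72 h peaks were strict in both libraries, 6 at 72 h alone, 2 at 0 h alone and 4 in neither. Over all 28682 shared 72 h peaks those classes made up 57.4%, 14.1%, 12.2% and 16.3%. The 6 that were strict at 72 h alone lay at Slc5a1 (1), Slc2a5 (3) and Khk (2), and the 2 that were strict at 0 h alone both lay at Slc2a1. The 3 shared peaks of Slc2a2 were strict in both. Midpoints of shared peaks were a median of 29 bp apart at the 5 genes and 30 bp apart over all shared peaks. Among the shared 72 h peaks the widest difference was 456 bp, at the second peak of the Slc2a1 start, and among the shared 0 h peaks it was 468 bp, at the start of Gpr157 in the Slc2a5 window.

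**Figure D4:**
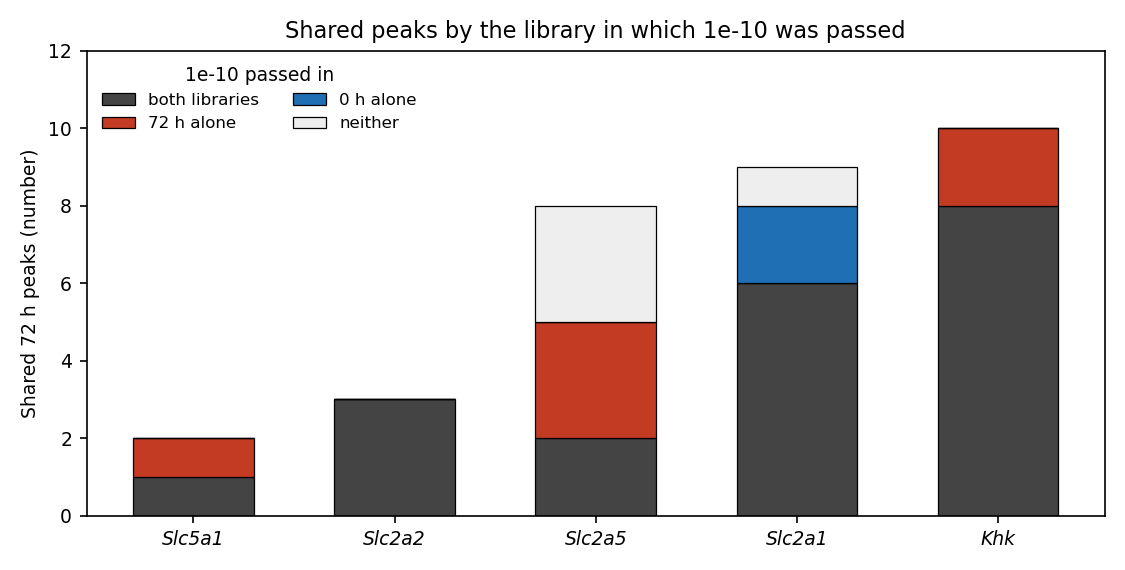
Shared 72 h peaks of each gene, stacked by the library in which 1e-10 was passed, judged by the 0 h peak of widest overlap. Slc2a1 is the gene with peaks strict at 0 h alone (2), while Slc5a1, Slc2a5 and Khk have 1, 3 and 2 peaks strict at 72 h alone. These are peaks and not sites. At Slc2a1, 1 of the 2 lies at the start, where another 72 h peak was strict. At Khk, 1 of the 2 also overlaps strict 0 h peaks by fewer bases.

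Genes with the likest set of peaks were sought by the summed difference over 6 counts (shared, 72 h only and 0 h only, each split by threshold) from the 2 libraries. For Slc5a1, Rbm33 had the same 6 counts, and Daw1 and Rpn2 differed by 1 peak. For Slc2a2, 11 genes had the same counts, of which Cap1, Angel2 and Ikbip were nearest in length. For Slc2a1, 9 genes had the same counts, with Xpc, Bdh1 and Slc29a2 nearest in length. Slc2a7 and Nkx1-2 each differed by 1 peak from Slc2a5 and Csk by 2, and Slc2a7 shares much of its window with Slc2a5. For Khk, its neighbours Cgref1 and Ost4 had the same counts from largely the same peaks, and Kxd1 differed by 1 peak.

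The other genes of sugar handling, 40 from a list drawn up from general knowledge, had strict 72 h-only peaks at 19 (47.5%, 31.5 to 63.9), and the 33.3% of all genes lies inside that interval. Strict 0 h-only peaks were at 6 of them (13.0% of all genes), and the median gene of the list had 8 peaks at 72 h and 6 at 0 h, beside medians of 5 and 5 over all genes. Some genes of the list are neighbours and share peaks, so they are not independent. The list was drawn up with earlier results of these data known. All 4 genes reported from its fructose group had a strict 72 h-only peak (100%, 39.8 to 100). This was the highest share of any group, in windows with a median of 8 peaks at 72 h. The interval of every other group holds the 33.3% of all genes. Tkfc (triokinase) and Glyctk (glycerate kinase) had 1 each. Sord (sorbitol dehydrogenase) and Aldh1a1 (an aldehyde dehydrogenase better known for making retinoic acid) had 2 each. Among the sodium-coupled transporters, 4 of 6 had one, with 2 at Slc5a4a and Slc5a10 and 1 at Slc5a4b and Slc5a9. Of the other hexose transporters, 2 of 9 had one, Slc2a3 with 1 and Slc2a7 with 2, and both Slc2a7 peaks are those of the Slc2a5 window. Of 4 hexokinase genes, Hk1 and Hkdc1 had 1 each, and of 4 galactose genes Galm (galactose mutarotase) had 1. Of 7 genes of glucose release and gluconeogenesis, Pck1 (the cytosolic phosphoenolpyruvate carboxykinase) had 2 and G6pc3 1. Of 6 sugar sensing genes, Txnip and Arrdc4, which encode arrestin-like proteins that limit glucose uptake, had 2 each, and Mlxipl (the glucose-responsive factor ChREBP) and Tas1r2 (a sweet taste receptor subunit) 1 each. The 6 with a strict 0 h-only peak were Slc2a10, Hk2, G6pc3, Pck2, Mlx and Txnip, each with 1.

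**Figure D5:**
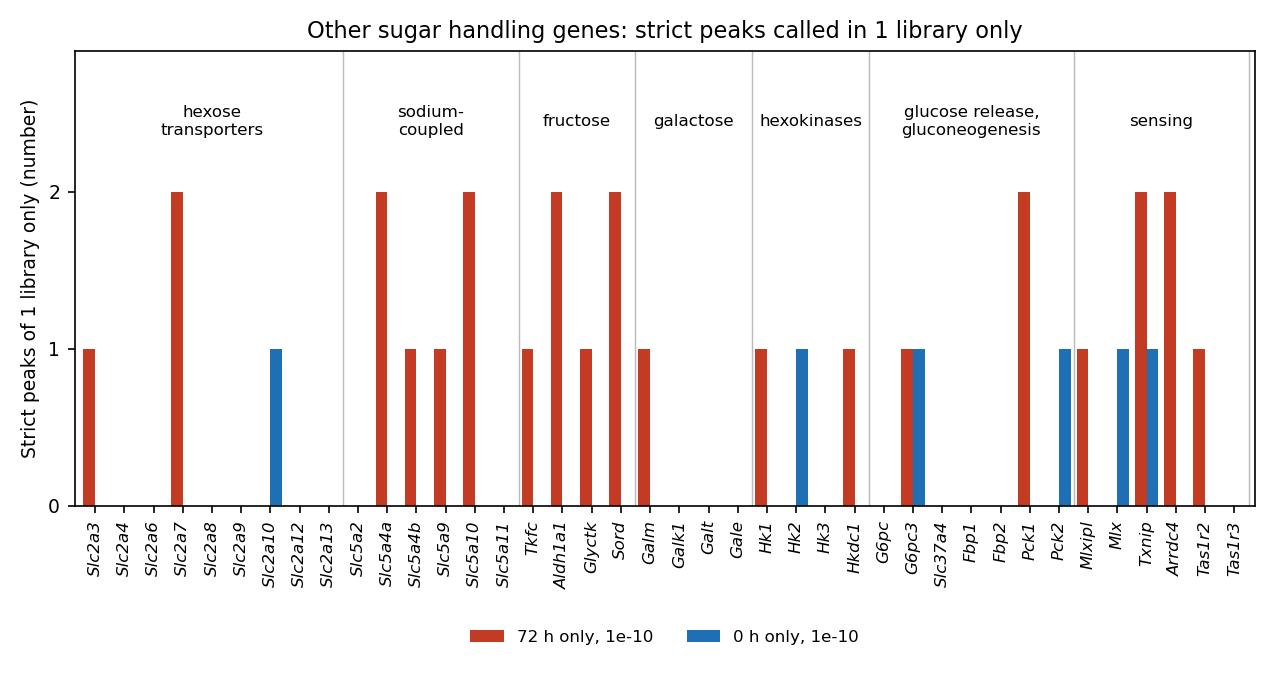
Strict peaks called in 1 library only in the windows of the 40 other sugar handling genes, by group, with the 72 h bar left of the 0 h bar. The 4 genes reported from the fructose group all have a bar at 72 h and none at 0 h. The sodium-coupled and galactose groups also have no bar at 0 h. The 6 genes with a bar at 0 h are spread over 4 groups.

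As at Slc2a2, some of these genes had their start in a peak at 72 h alone. Of the 40 genes, 5 had a 72 h peak on an annotated start window and no 0 h peak on any, and none had the reverse; over 17492 protein-coding genes the shares were 1.75% and 3.62%. They were Tkfc, Glyctk and Pck1 with strict peaks, centred 191, 55 and 323 bp before the start, and G6pc (glucose-6-phosphatase) and Slc5a11 (an inositol cotransporter) with lenient ones, 261 and 50 bp before it. This count and the names of G6pc and Slc5a11 were chosen after the values were seen.

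The labelled tissue was checked by peaks within 1 kb of either end of marker genes. All 10 epithelial markers, among them Epcam, Cdh1, Vil1 and Cdx2, had such a peak at both times. Of 6 fibroblast and smooth muscle markers 2 had one at 72 h (Col1a1 and Myh11) and 1 at 0 h (Col1a1). Of 4 endothelial markers none had one at 72 h and 1 at 0 h (Kdr). Of 5 immune markers 2 had one at each time (Spi1 and Itgam). The remaining markers of these cell types, among them Pdgfra, Pecam1 and Ptprc, had none at either time. The part of other cells in the results was not tested. At the 5 genes the 72 h library had 1.29 times as many peaks as the 0 h library (49 against 38). Its whole list was also the longer one, with 41343 peaks against 35857.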

How the data were processed

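Peak lists of the 72 h and 0 h libraries were used as deposited. The tools listed in the submitters' processing notes, without their roles, are MACS2 2.2.7.1, bedtools 2.26.0, Bowtie2 2.4.1, cutadapt 1.9.1, deepTools 3.5.4, Picard 2.18.27 and SAMtools 1.3.1, with mm10 as the build; any Tn5 shift or duplicate removal is not given in the sources used here. Peak names show that each library was called by itself. Nearly all rows span 601 bp. The strict lists are subsets of the lenient ones.

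Gene bodies came from a RefSeq table of GRCm38.p6 and starts and strands from RefSeq promoter windows, in which all 5 genes were found; exons were not resolved. Coordinates are 1-based. Overlaps, shares and motif searches were computed with pandas 2.3.3, SciPy 1.17.1 and numpy 2.4.6 in Python 3.11.15 and drawn with matplotlib 3.10.9, and the overlap classes were checked on simulated peaks. The members and lists were chosen with earlier results of these data known. Of the list of other sugar handling genes, 2 are not reported here. The text names the 5 members, list genes with a strict peak of 1 library only, up to 3 likest genes per member, and neighbours that hold peaks. Alternatives varied the window, the overlap, the threshold, the merging of peaks and the assignment to genes.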

Additional observations from a re-analysis of the deposited data

How the results depend on the processing

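Of 81 values (9 counts under 9 alternatives), 55 stayed within 1.5 times the reported count. Some of these could not move, since the strict counts are by definition the same when only strict peaks are used. The 26 others moved further and are among the values given below. Within 10 kb of the genes, 10 of 27 peaks at 72 h were at 72 h alone (5 strict) and 2 of 19 at 0 h were at 0 h alone. Of those at 72 h alone, 1 was at Slc5a1, 2 at Khk and 0 at Slc2a1. The shares over the whole lists were 30.6% at 72 h and 20.7% at 0 h. Within 100 kb, 23 of 73 peaks at 72 h were at 72 h alone, 4 of them at Slc2a1. At 0 h, 8 of 59 were at 0 h alone, 1 of them strict. With an overlap of over 300 bp required, Slc2a1 had 2 at 72 h alone, and 1 strict peak at 0 h alone appeared. With a peak within 1 kb counted as shared, Khk had 2 at 72 h alone. With only peaks nearest to the member, Khk had 1 of 2 and Slc2a5 2 of 6 at 72 h alone. Over the 5 genes, 2 of 19 remained at 0 h alone. With strict peaks only, 9 were at 72 h alone and 0 at 0 h alone, with 2 each at Slc2a2, Slc2a5 and Khk and 0 at Slc2a1. With strict peaks set against strict peaks, 14 of 35 were at 72 h alone and 1 of 23 at 0 h alone, with 2 at Slc2a2 and 0 at Slc2a1. The whole-list counts for 72 h given above go by the 0 h peak of widest overlap and are only an upper bound under that rule. No whole-list count under it was made for either library. Merging peaks into sites changed none of the 9 counts. An alternative chosen after seeing the data, without peaks where the other library's numbering skips, left 16 peaks at 72 h alone, 8 of them strict. No paired analysis was possible because each time point has 1 library, and no library could be left out. Unknown depth limits all of these counts.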
